A study of Homo sapiens with 12 samples.

Results

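DNAJ proteins, also called J proteins or HSP40 co-chaperones, were followed at the transcript level in human kidney cells exposed to a compound that the labels call Kbr. The set holds 34 genes of the DNAJA, DNAJB and DNAJC classes, listed without the J proteins of the endoplasmic reticulum (ER) lumen. Members were found by their gene symbols in the array annotation, and each was read from the probe set with the highest mean among those that carry only that gene. Of the 34 listed genes 33 had such a probe set, and 29 of these passed the filter (over 4 on the log2 scale in 3 or more arrays) and were tested, among 10574 tested genes of 19775 measured. DNAJA4, DNAJB5, DNAJC15 and DNAJC28 lay between log2 2.18 and 3.25 in all 12 arrays and were not tested. DNAJC25 shares its probe set with another gene and was not analysed here.

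The cells were HK-2, an immortalised line of human renal proximal tubule epithelium. Cultures were exposed to Kbr at a dose that the labels call only high, with no concentration, or to the matching control vehicle, for 24 h or 48 h. The 12 Affymetrix arrays therefore form 4 groups with 3 biological replicates in each, which are Kbr and control cultures at 24 h and the same pair at 48 h. The submitters looked for expression signatures of toxicity in this line. Values are on the log2 scale after GCRMA, which corrects each probe for nonspecific binding before summarising, so a difference of 1 is a doubling of signal. Signals of different probe sets are on different scales and are not set against each other here.

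A DNAJ protein carries a J domain that makes an HSP70 chaperone hydrolyse ATP and so close on its client, and the rest of the protein decides which clients are brought and in which compartment. Class A and B members of the cytosol feed misfolded proteins to HSP70, while most class C members are fixed to one job, such as the ribosome, the spliceosome, the mitochondrial import channel or the clathrin coat. Several cytosolic members are classical heat shock genes, whose promoters hold heat shock elements, alternating repeats of GAA and TTC bound by heat shock factor 1. Kidney tubule cells are rich in mitochondria and in endocytic coats, both of which depend on J proteins.

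Start-site windows from RefSeq (build GRCh38.p14, 250 bases before to 50 bases after a transcript start) were found for 32 of the 34 genes, with 44 windows in all. Both arrangements of neighbouring heat shock units, GAANNTTC and TTCNNGAA, were searched on both strands; each reads the same on either strand, and the 2 overlap where 3 units follow each other, GAANNTTC running on into TTCNNGAA. A pair of units stood in 7 of the 32 genes (21.9%), against 16.2% of 27305 genes with a window. The row of 3 units stood in 2 of the 32, DNAJA1 and DNAJB6, against 0.608% of those genes. Of the 8 cytosolic class A and B genes 5 held a pair of units (DNAJA1, DNAJA4, DNAJB1, DNAJB4 and DNAJB6). The other 2 genes with a pair were DNAJC6 and DNAJC15. Windows of 5 of the 7 genes whose transcripts were higher with Kbr at both times are printed 5′ to 3′ along the gene, with the matched heat shock units in capitals; DNAJC2 is shown because it had the largest rise of the set and its window holds none of these letters. The windows of the other 2, DNAJA2 and DNAJC7, also hold none and are not printed. The printed windows lie at chr9:33025023-33025322 (plus strand) for DNAJA1, chr7:157336754-157337053 (plus strand) for DNAJB6, chr19:14518348-14518647 (minus strand) for DNAJB1, chr1:78004689-78004988 (plus strand) for DNAJB4 and chr7:103344718-103345017 (minus strand) for DNAJC2.
DNAJA1: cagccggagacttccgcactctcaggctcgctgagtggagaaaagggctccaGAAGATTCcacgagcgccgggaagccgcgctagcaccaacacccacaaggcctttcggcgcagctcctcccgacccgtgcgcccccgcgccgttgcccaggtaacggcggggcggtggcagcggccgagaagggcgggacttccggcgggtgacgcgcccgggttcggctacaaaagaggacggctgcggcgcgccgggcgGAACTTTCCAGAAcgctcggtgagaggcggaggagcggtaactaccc
DNAJB6: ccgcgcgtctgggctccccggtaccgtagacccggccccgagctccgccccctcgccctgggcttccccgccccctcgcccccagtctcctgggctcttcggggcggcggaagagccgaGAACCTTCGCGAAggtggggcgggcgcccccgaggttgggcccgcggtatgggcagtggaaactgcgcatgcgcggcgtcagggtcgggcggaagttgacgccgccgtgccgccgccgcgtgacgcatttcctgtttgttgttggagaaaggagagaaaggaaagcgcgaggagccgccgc
DNAJB1: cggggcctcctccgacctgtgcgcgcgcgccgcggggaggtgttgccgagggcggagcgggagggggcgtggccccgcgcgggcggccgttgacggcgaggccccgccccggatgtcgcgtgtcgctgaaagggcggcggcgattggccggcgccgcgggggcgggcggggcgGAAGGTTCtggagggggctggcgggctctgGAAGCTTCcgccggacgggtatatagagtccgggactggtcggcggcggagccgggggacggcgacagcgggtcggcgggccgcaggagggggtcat
DNAJB4: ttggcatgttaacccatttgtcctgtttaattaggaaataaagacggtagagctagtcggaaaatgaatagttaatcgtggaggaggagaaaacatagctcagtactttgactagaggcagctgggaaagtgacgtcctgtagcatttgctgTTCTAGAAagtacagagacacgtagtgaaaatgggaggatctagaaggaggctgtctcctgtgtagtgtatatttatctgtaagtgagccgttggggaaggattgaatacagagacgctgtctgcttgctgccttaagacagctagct
DNAJC2: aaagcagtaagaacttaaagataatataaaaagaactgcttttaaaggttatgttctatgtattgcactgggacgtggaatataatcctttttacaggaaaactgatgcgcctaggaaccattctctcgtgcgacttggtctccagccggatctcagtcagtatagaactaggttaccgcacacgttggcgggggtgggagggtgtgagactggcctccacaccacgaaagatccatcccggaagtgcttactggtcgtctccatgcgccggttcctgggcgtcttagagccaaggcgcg

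In the DNAJA1 window the row of 3 units covers bases 4 to 16 after the transcript start, and a further pair lies from -198 to -191. In DNAJB6 the row of 3 lies from -131 to -119. The DNAJB1 window shown holds pairs at -77 to -70 and at -47 to -40, and DNAJB4 has its pair at -98 to -91. DNAJB1 has 3 windows and DNAJB4 has 2, and which start these cells used was not measured. For each gene the window with the most matched letters was printed. Another DNAJB1 window holds a pair at bases 2 to 9, while the last DNAJB1 window and the other DNAJB4 window hold none. Most windows held no such letters, whichever way the transcript moved. Of the 13 members higher at 48 h, DNAJA1, DNAJB1, DNAJB4, DNAJB6 and DNAJC6 held a pair, 7 held none (DNAJA2, DNAJA3, DNAJC2, DNAJC7, DNAJC8, DNAJC9 and DNAJC30) and DNAJC24 had no window here. The 4 members lower at 48 h held none, as did most genes with a window.

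**Figure D1:**
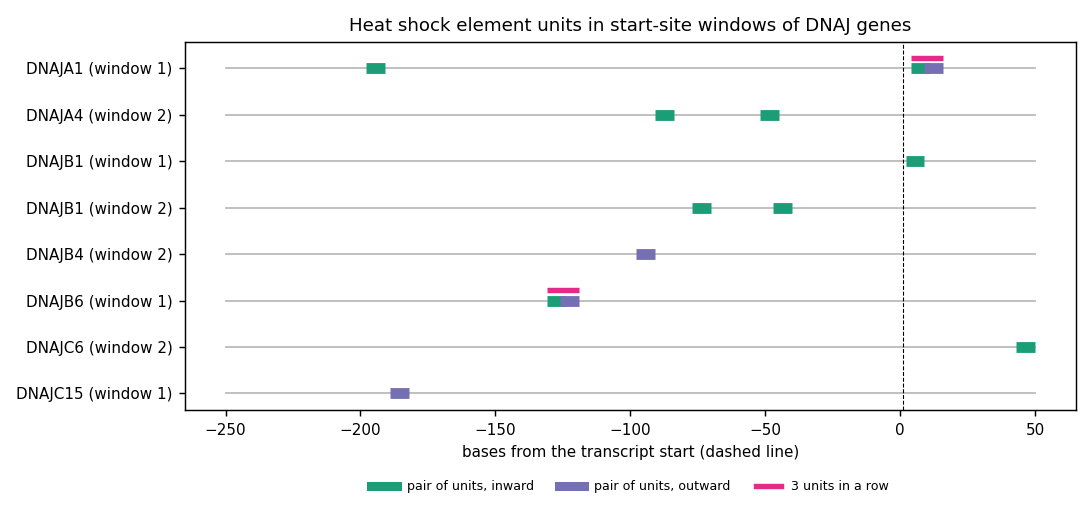
Positions of heat shock element units in start-site windows of the 7 DNAJ genes that hold a pair (horizontal axis, bases from the transcript start; 1 line per window). Green and violet bars mark pairs of units in the inward and outward arrangement and pink bars mark 3 units in a row, which were found in DNAJA1 and DNAJB6.

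Array medians ran from 2.89 to 2.96, and the share of probe sets over log2 4 was 39.1% to 39.9%. Kbr 48 h replicate 3 stood apart, with deviations from the mean of its group that had a root mean square of 0.29 over tested genes, against 0.164 to 0.228 in the other 11 arrays. All 5 epithelial markers and 3 of 13 proximal tubule markers (DPP4, SLC3A1 and GATM) passed the filter, while LRP2 and CUBN, which define the segment in the kidney, did not. The summed proximal tubule markers lay at log2 10.86 to 11.40 in Kbr 24 h and 11.49 to 11.96 in control 24 h arrays, and at 10.93 to 11.35 in Kbr 48 h and 12.02 to 12.40 in control 48 h arrays. The epithelial sum lay at 14.18 to 14.40 in Kbr 24 h and 14.62 to 14.87 in control 24 h arrays, and at 14.12 to 14.29 in Kbr 48 h and 14.47 to 14.78 in control 48 h arrays, with 4 of the 5 lower and 1 higher at 48 h. Markers of other nephron segments, of which 3 of 7 passed, summed to 8.45 to 8.55 in Kbr 24 h and 9.04 to 9.43 in control 24 h arrays, and to 7.79 to 8.20 in Kbr 48 h and 9.57 to 9.89 in control 48 h arrays. None of 4 leukocyte markers and 1 of 5 endothelial markers passed. The summed fibroblast markers, of which 4 of 7 passed, lay at log2 11.45 to 11.86 in Kbr 24 h and 12.38 to 12.89 in control 24 h arrays, and at 10.24 to 10.66 in Kbr 48 h and 12.30 to 12.36 in control 48 h arrays. The 18S ribosomal RNA control probe sets averaged 7.82 to 8.35 in Kbr 24 h and 7.53 to 7.75 in control 24 h arrays, and 8.32 to 8.78 in Kbr 48 h and 7.93 to 8.30 in control 48 h arrays. The 28S probe sets averaged 7.12 to 7.48 in Kbr 24 h and 6.80 to 6.91 in control 24 h arrays, and 7.43 to 7.58 in Kbr 48 h and 7.01 to 7.11 in control 48 h arrays. The part of these shifts in the results was not tested. In bulk RNA of this kind, fewer cells with a transcript and less of it per cell cannot be told apart.

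More DNAJ transcripts were higher than lower with Kbr, and 5 cytosolic class A and B co-chaperones, the ribosome-bound DNAJC2 and DNAJC7 were higher at both times. At 24 h, 7 of the 29 tested members were higher and 1 was lower than in control cultures at an adjusted p under 0.05, against 12.4% and 20.0% of all tested genes. At 48 h, 13 were higher and 4 lower, against 26.9% and 32.8% of all genes (59.6% in either direction). The median log2 fold change of the 29 was 0.11 at 24 h and 0.09 at 48 h, against -0.06 over all tested genes at each time. With the replicate number as a block the counts were 9 higher and 3 lower at 24 h, where all genes gave 18.6% and 29.4%. With the block at 48 h the counts stayed at 13 and 4, where all genes gave 31.3% and 38.1%. Without Kbr 48 h replicate 3, 14 were higher and 4 lower at 48 h, where all genes gave 27.5% and 31.7%. In 9 members all Kbr 24 h arrays lay above all control 24 h arrays and in 3 below (22.4% and 29.2% of all genes), and at 48 h in 13 above and in 6 below (28.6% and 34.2%).

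**Figure D2:**
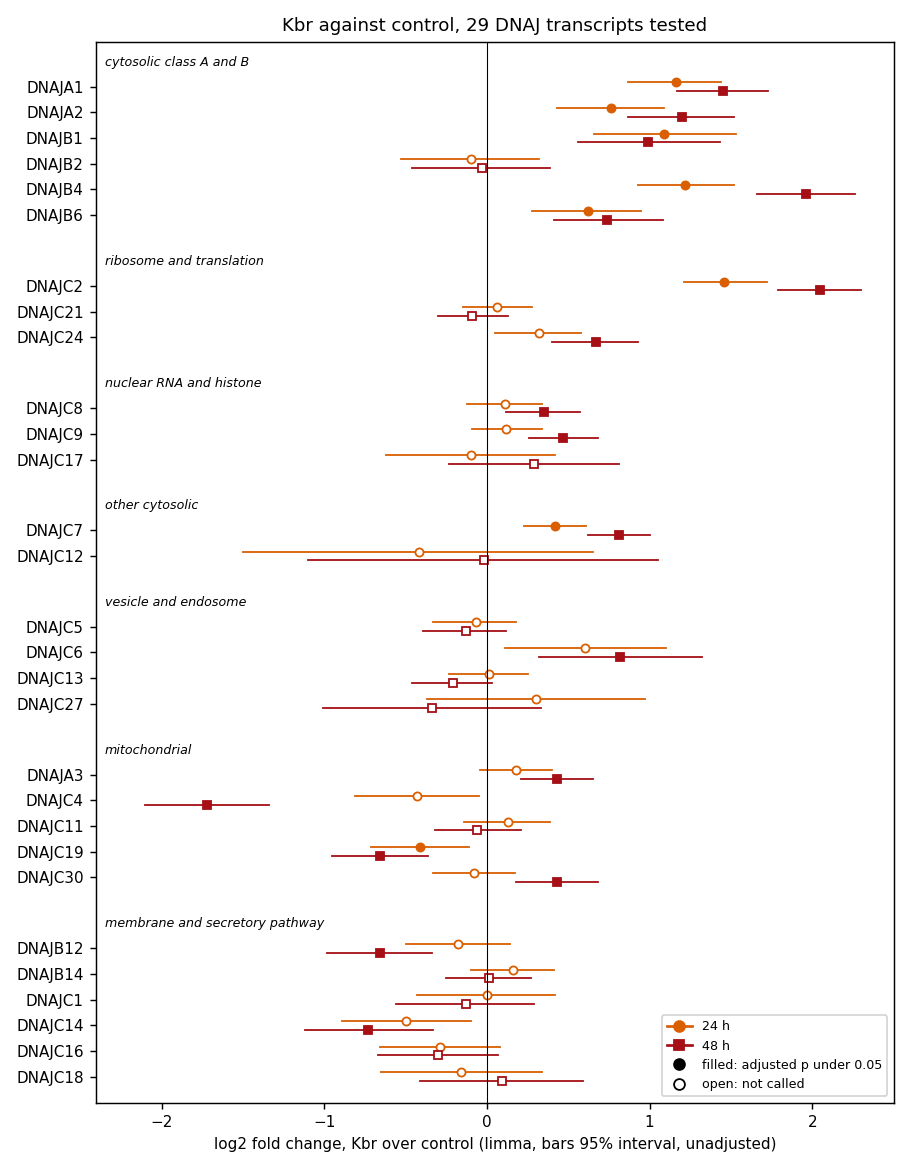
Log2 fold change of the 29 tested DNAJ transcripts, Kbr over control, by role of the protein (horizontal axis; bars, unadjusted 95% interval from limma). Orange circles are 24 h and red squares 48 h, filled where the adjusted p was under 0.05; the largest rise is DNAJC2 at 2.05 and the largest fall DNAJC4 at -1.72, both at 48 h.

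The cytosolic class A and B co-chaperones, which hand unfolded proteins to HSP70, rose together. Of 6 tested members 5 were higher at both times and DNAJB2 was not, with median log2 fold changes of 0.93 at 24 h and 1.10 at 48 h. Beside this, 12.4% of all tested genes were higher at 24 h and 26.9% at 48 h, with a median of -0.06 at each time. DNAJA1, a farnesylated class A co-chaperone, read 13.56, 13.67 and 13.69 in Kbr 24 h arrays (replicates 1 to 3), against 12.30, 12.55 and 12.61 in control 24 h arrays. At 48 h its values were 13.59, 13.65 and 13.77 with Kbr, against 11.96, 12.34 and 12.37 in controls. At both times every Kbr array lay above every control array. The rise of DNAJA1 was 1.16 at 24 h (SE 0.13, 2.23-fold, adjusted p = 0.000211) and 1.45 at 48 h (SE 0.13, 2.73-fold, adjusted p = 5.87e-06). A second DNAJA1 probe set gave 1.35 and 1.40.

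DNAJB1, the heat-inducible HSP40, read 11.30, 11.17 and 11.26 in Kbr 24 h arrays, against 10.13, 9.98 and 10.34 in control 24 h arrays. Its 48 h values were 10.83, 10.55 and 11.38 with Kbr, against 10.09, 9.65 and 10.04 in controls. The groups did not overlap at either time, and within Kbr 48 h replicate 3 was the highest. DNAJB1 was raised by 1.09 at 24 h (SE 0.20, adjusted p = 0.00224) and by 0.99 at 48 h (SE 0.20, adjusted p = 0.00124). DNAJB4, its close cytosolic relative, read 10.03, 10.02 and 9.69 in Kbr 24 h arrays, against 8.81, 8.67 and 8.58 in control 24 h arrays. At 48 h DNAJB4 read 10.85, 10.66 and 10.37 with Kbr, against 8.67 in each of the 3 controls. All Kbr arrays lay above all controls at both times, and the Kbr 48 h arrays lay above the Kbr 24 h arrays. The DNAJB4 rise was 1.22 at 24 h (SE 0.14, 2.34-fold, adjusted p = 0.000211) and 1.96 at 48 h (SE 0.14, 3.89-fold, adjusted p = 1.64e-06).

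DNAJA2, the other main class A co-chaperone of the cytosol, read 11.10, 10.72 and 10.90 in Kbr 24 h arrays, against 10.19, 9.94 and 10.31 in control 24 h arrays. Its 48 h values were 11.30, 11.11 and 11.17 with Kbr, against 10.08, 9.72 and 10.20 in controls. The groups stood apart at both times. DNAJA2 was higher by 0.76 at 24 h (SE 0.15, adjusted p = 0.00341) and by 1.20 at 48 h (SE 0.15, adjusted p = 5.44e-05). Its second probe set gave 0.45 at 24 h (adjusted p = 0.0221) and 0.02 at 48 h (adjusted p = 0.916), so the 48 h rise of DNAJA2 rests on the probe set used. DNAJB6, which holds back aggregation of polyglutamine proteins, read 9.44, 9.13 and 9.36 in Kbr 24 h arrays, against 8.71, 8.72 and 8.64 in control 24 h arrays. At 48 h it read 9.22, 9.12 and 9.50 with Kbr, against 8.80, 8.23 and 8.59 in controls. There was no overlap at either time, and the rises were 0.62 (SE 0.15, adjusted p = 0.0108) and 0.74 (SE 0.15, adjusted p = 0.00153). DNAJB2, a class B co-chaperone best known in neurons that passes ubiquitinated clients to the proteasome, gave -0.10 at 24 h (95% interval -0.53 to 0.32) and -0.03 at 48 h (-0.46 to 0.39).

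**Figure D3:**
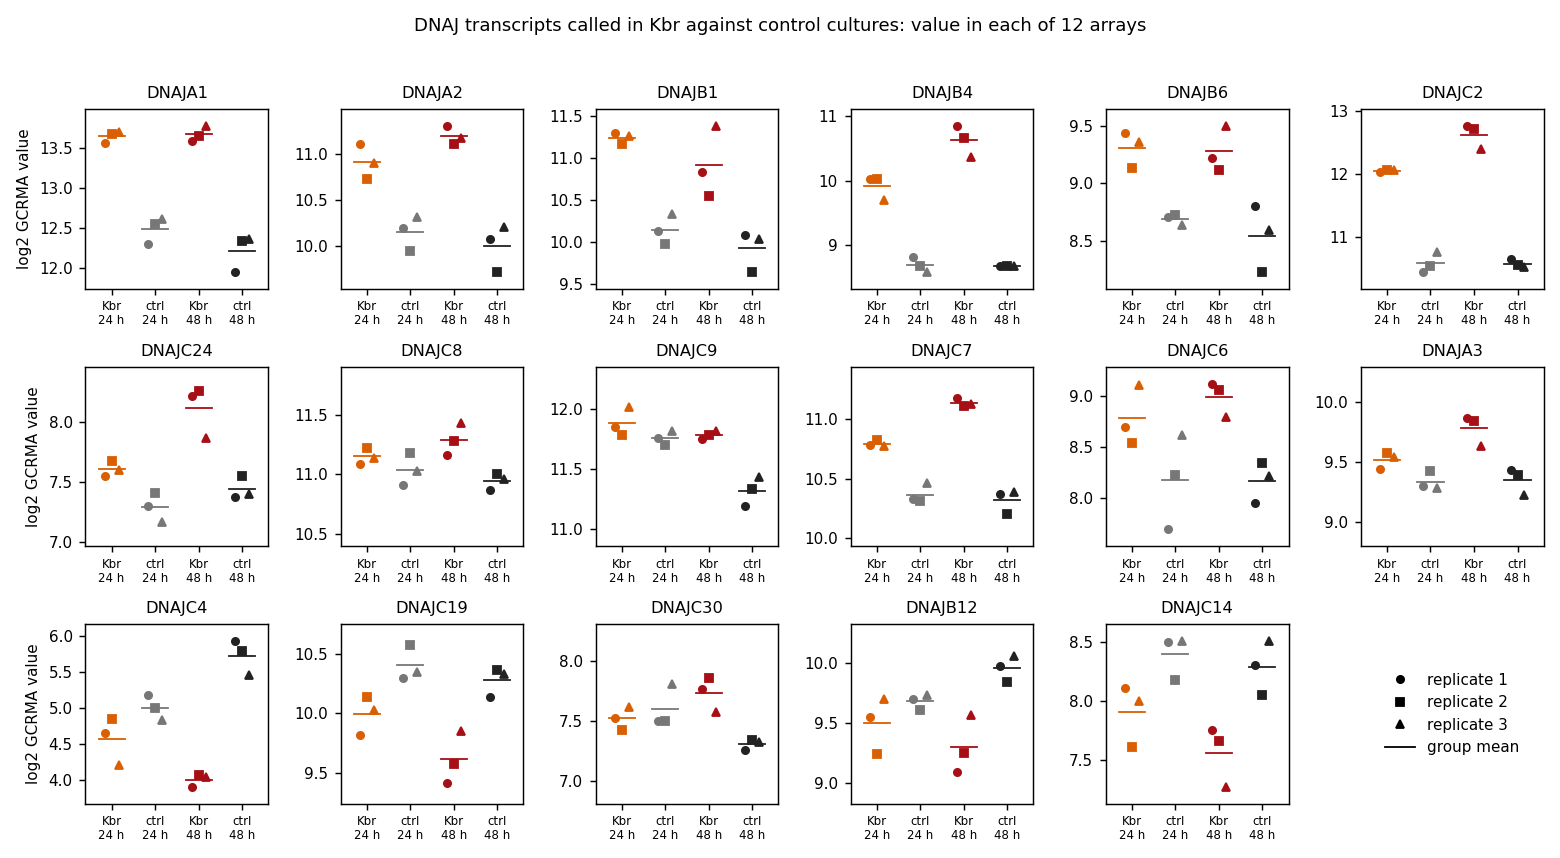
Log2 GCRMA value of the 17 DNAJ transcripts called at 48 h in each of the 12 arrays (vertical axis, scaled for each gene; Kbr left of control at each time). Symbols are replicates 1 to 3 and lines are group means; in DNAJC2 the Kbr 48 h arrays sit between 12.39 and 12.76 and the control 48 h arrays between 10.52 and 10.65.

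Among members that work on translation, DNAJC2 and DNAJC24 rose at 48 h and DNAJC21 did not pass the test. That is 2 higher of 3 tested, beside 26.9% of all tested genes. DNAJC2, also known as MPP11 or ZRF1, sits at the ribosomal exit tunnel with the HSP70 relative HSPA14, where the pair receives growing chains. It read 12.03, 12.07 and 12.06 in Kbr 24 h arrays, against 10.45, 10.54 and 10.77 in control 24 h arrays. At 48 h DNAJC2 read 12.76, 12.71 and 12.39 with Kbr, against 10.65, 10.55 and 10.52 in controls. The groups lay more than 1 log2 unit apart at each time. The DNAJC2 rise was 1.46 at 24 h (SE 0.12, 2.76-fold, adjusted p = 4.22e-05) and 2.05 at 48 h (SE 0.12, 4.13-fold, adjusted p = 7.49e-07). Ranked by log2 fold change among the 10574 tested genes, DNAJC2 stood at place 28 from the top at 24 h and 68 at 48 h. Its only other probe set lay near log2 2.1 in every group and gives no second reading.

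DNAJC24, which helps to make diphthamide on translation elongation factor 2, read 7.55, 7.68 and 7.60 in Kbr 24 h arrays, against 7.30, 7.41 and 7.17 in control 24 h arrays. Its 48 h values were 8.22, 8.26 and 7.87 with Kbr, against 7.38, 7.55 and 7.40 in controls. The groups did not overlap at either time. DNAJC24 was at 0.32 at 24 h (SE 0.12, adjusted p = 0.0631, with the replicate block 0.0152) and was raised by 0.67 at 48 h (SE 0.12, adjusted p = 0.000615). DNAJC21, a factor of large ribosomal subunit maturation, gave 0.06 at 24 h (95% interval -0.15 to 0.28) and -0.09 at 48 h (-0.30 to 0.13) on the probe set used. The other 2 DNAJC21 probe sets over the filter gave -0.56 (adjusted p = 0.00519) and -1.67 (adjusted p = 7.43e-06) at 48 h, in a fit of all probe sets, and 0 of its probe sets was called higher.

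The J proteins of the nucleus moved little at 24 h. At 48 h 2 of 3 were modestly higher than in controls, beside 26.9% of all tested genes. DNAJC9, which chaperones histones H3 and H4, read 11.85, 11.78 and 12.02 in Kbr 24 h arrays, against 11.76, 11.70 and 11.82 in control 24 h arrays. At 48 h DNAJC9 read 11.75, 11.78 and 11.82 with Kbr, against 11.19, 11.33 and 11.43 in controls. The groups overlapped at 24 h and stood apart at 48 h, with differences of 0.12 (adjusted p = 0.348) and 0.47 (SE 0.10, adjusted p = 0.00158). In DNAJC9 the control 48 h cultures were themselves lower than the control 24 h cultures, with means of 11.31 and 11.76. Kbr cultures did not rise between the times, with means of 11.88 at 24 h and 11.78 at 48 h. DNAJC8, a protein found with splicing factors, read 11.09, 11.22 and 11.14 in Kbr 24 h arrays, against 10.91, 11.18 and 11.03 in control 24 h arrays. Its 48 h values were 11.16, 11.28 and 11.43 with Kbr, against 10.87, 11.00 and 10.96 in controls. DNAJC8 overlapped at 24 h (0.11, adjusted p = 0.438) and not at 48 h, where it was higher by 0.35 (SE 0.10, adjusted p = 0.0129). Other DNAJC8 probe sets gave 0.53 (adjusted p = 0.00523) and 0.13 (adjusted p = 0.406) at 48 h. DNAJC17, another splicing-associated member with values near the filter, gave -0.10 and 0.29 with 95% intervals of -0.62 to 0.42 and -0.23 to 0.81.

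DNAJC7, which binds both HSP70 and HSP90 through its TPR repeats, rose at both times. It read 10.78, 10.82 and 10.77 in Kbr 24 h arrays, against 10.33, 10.31 and 10.46 in control 24 h arrays. At 48 h it read 11.17, 11.11 and 11.12 with Kbr, against 10.37, 10.20 and 10.39 in controls. Neither time showed overlap. DNAJC7 was raised by 0.42 (SE 0.09, adjusted p = 0.00404) and by 0.81 (SE 0.09, adjusted p = 1.81e-05). Its second probe set over the filter was called at neither time (0.23, adjusted p = 0.566, and 0.68, adjusted p = 0.0525), and the 24 h call was lost with the mean of all probe sets. DNAJC12, the co-chaperone of phenylalanine hydroxylase, spread between 5.77 and 8.24 over the 12 arrays, and replicate 3 was the lowest of its group in all 4 groups. Its differences were -0.42 at 24 h (95% interval -1.50 to 0.65) and -0.02 at 48 h (-1.10 to 1.05), with an SE of 0.49 that became 0.23 with the replicate block, and neither fit called it.

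Of the 4 members on vesicles and endosomes 1 was higher at 48 h (25%), a share near the 26.9% of all tested genes. DNAJC6, or auxilin, strips the clathrin coat from vesicles together with HSC70 and is best known in neurons. It read 8.69, 8.54 and 9.11 in Kbr 24 h arrays, against 7.69, 8.22 and 8.62 in control 24 h arrays. At 48 h DNAJC6 read 9.12, 9.06 and 8.79 with Kbr, against 7.95, 8.34 and 8.21 in controls. The groups overlapped at 24 h and did not at 48 h. The difference was 0.60 at 24 h (SE 0.23, adjusted p = 0.0627, with the replicate block 0.0414) and 0.82 at 48 h (SE 0.23, adjusted p = 0.00898). DNAJC5, the cysteine string protein of secretory vesicles, gave -0.07 and -0.13, with a 95% interval of -0.39 to 0.12 at 48 h. DNAJC13, which sorts cargo on endosomes, gave 0.01 and -0.21 (48 h interval -0.46 to 0.03). DNAJC27, a Rab-like GTPase with a J domain, gave 0.30 and -0.34 (48 h interval -1.01 to 0.33).

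Mitochondrial members moved in both directions at 48 h, with DNAJA3 and DNAJC30 higher and DNAJC19 and DNAJC4 lower. These are 2 higher and 2 lower of 5 tested, beside 26.9% and 32.8% of all tested genes. DNAJC19 is the J protein of the inner membrane import motor, where it drives the mitochondrial HSP70 HSPA9. It read 9.82, 10.14 and 10.03 in Kbr 24 h arrays, against 10.30, 10.57 and 10.35 in control 24 h arrays. At 48 h DNAJC19 read 9.42, 9.58 and 9.85 with Kbr, against 10.14, 10.36 and 10.33 in controls. All Kbr arrays lay below all controls at both times. DNAJC19 fell by 0.41 at 24 h (SE 0.13, adjusted p = 0.0385) and by 0.66 at 48 h (SE 0.13, adjusted p = 0.00153). The 24 h call was lost when Kbr 24 h replicate 1 or 3, Kbr 48 h replicate 2 or any control 24 h replicate was left out, with an adjusted p of up to 0.136. Its second probe set gave -0.27 (adjusted p = 0.253) and -0.71 (adjusted p = 0.00369).

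DNAJC4, a small J protein read near the filter, had values of 4.66, 4.85 and 4.22 in Kbr 24 h arrays, against 5.19, 5.00 and 4.84 in control 24 h arrays. At 48 h it read 3.91, 4.07 and 4.05 with Kbr, against 5.93, 5.80 and 5.46 in controls. The groups overlapped at 24 h and lay at least 1 log2 unit apart at 48 h. DNAJC4 was at -0.43 at 24 h (SE 0.17, adjusted p = 0.0775, with the replicate block 0.0246) and fell by 1.72 at 48 h (SE 0.17, 0.303 of control, adjusted p = 1.31e-05). Its second probe set over the filter gave -0.50 at 48 h (adjusted p = 0.00469), the same direction at a smaller size. The Kbr 48 h values lie at the filter threshold.

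DNAJA3, the class A J protein of the mitochondrial matrix, read 9.44, 9.57 and 9.54 in Kbr 24 h arrays, against 9.30, 9.42 and 9.28 in control 24 h arrays. Its 48 h values were 9.87, 9.84 and 9.63 with Kbr, against 9.43, 9.39 and 9.22 in controls. The arrays of the groups did not overlap at either time, with differences of 0.18 (adjusted p = 0.186) and 0.43 (SE 0.10, adjusted p = 0.00322). DNAJC30, an inner membrane protein linked to respiration, read 7.53, 7.43 and 7.62 in Kbr 24 h arrays, against 7.50, 7.50 and 7.81 in control 24 h arrays. At 48 h DNAJC30 read 7.77, 7.86 and 7.58 with Kbr, against 7.26, 7.34 and 7.33 in controls. It overlapped at 24 h (-0.08, adjusted p = 0.641) and was higher by 0.43 at 48 h (SE 0.11, adjusted p = 0.00705) without overlap. DNAJC11, which takes part in the shape of the cristae, gave 0.13 and -0.06 (48 h interval -0.32 to 0.21).

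In the membrane and secretory pathway group, 0 of 6 tested members rose and 2 fell at 48 h, and the 2 lower are a share near the 32.8% of all tested genes. By limma 0 were called at 24 h, and at an unadjusted p under 0.05 the count was 0 higher and 1 lower. The share of all tested genes at that unadjusted threshold was not counted. DNAJB12 is an ER membrane protein with its J domain in the cytosol, which works with HSC70 on misfolded membrane proteins. It read 9.55, 9.24 and 9.70 in Kbr 24 h arrays, against 9.70, 9.61 and 9.73 in control 24 h arrays. At 48 h DNAJB12 read 9.09, 9.25 and 9.57 with Kbr, against 9.98, 9.84 and 10.06 in controls. The groups overlapped at 24 h (-0.18, adjusted p = 0.366) and stood apart at 48 h, where DNAJB12 fell by 0.66 (SE 0.15, adjusted p = 0.00244). Other DNAJB12 probe sets gave -0.70 (adjusted p = 0.0352), -0.41 (adjusted p = 0.0342) and 0.04 (adjusted p = 0.701) at 48 h. DNAJC14, an ER protein known for the export of dopamine receptors, read 8.11, 7.61 and 8.00 in Kbr 24 h arrays, against 8.50, 8.18 and 8.51 in control 24 h arrays. Its 48 h values were 7.75, 7.66 and 7.27 with Kbr, against 8.31, 8.05 and 8.51 in controls. Every Kbr array lay below every control array at both times. DNAJC14 was at -0.50 at 24 h (SE 0.18, adjusted p = 0.0552, with the replicate block 0.0257) and fell by 0.73 at 48 h (SE 0.18, adjusted p = 0.00481). A second DNAJC14 probe set was called at neither time by limma (-0.36, adjusted p = 0.47, and -0.59, adjusted p = 0.169).

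DNAJB14, the close relative of DNAJB12, gave 0.16 at 24 h and 0.01 at 48 h (95% interval -0.25 to 0.27) on the probe set used, while its other 2 probe sets were higher at 48 h by 0.70 (adjusted p = 0.00353) and 0.55 (adjusted p = 0.0127). DNAJC1, an ER membrane J protein, gave -0.00 and -0.13 (48 h interval -0.56 to 0.29), and 1 of its other probe sets was lower at 48 h (-0.44, adjusted p = 0.0373). DNAJC16 gave -0.29 and -0.30 (48 h interval -0.67 to 0.07). DNAJC18 gave -0.16 and 0.09, and its Kbr 48 h arrays read 6.31, 6.28 and 5.35 against 5.63, 6.10 and 5.95 in controls. Without Kbr 48 h replicate 3, DNAJC18 was called higher at 48 h (adjusted p = 0.029).

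Over the 21 members with several probe sets above the filter, 0 had probe sets called in opposite directions at the same time. The plot of probe sets shows where readings of one gene diverged, among others in DNAJA2, DNAJC21, DNAJC4 and DNAJB14. In DNAJA1, DNAJB1 and DNAJB4 both probe sets rose at both times.

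**Figure D4:**
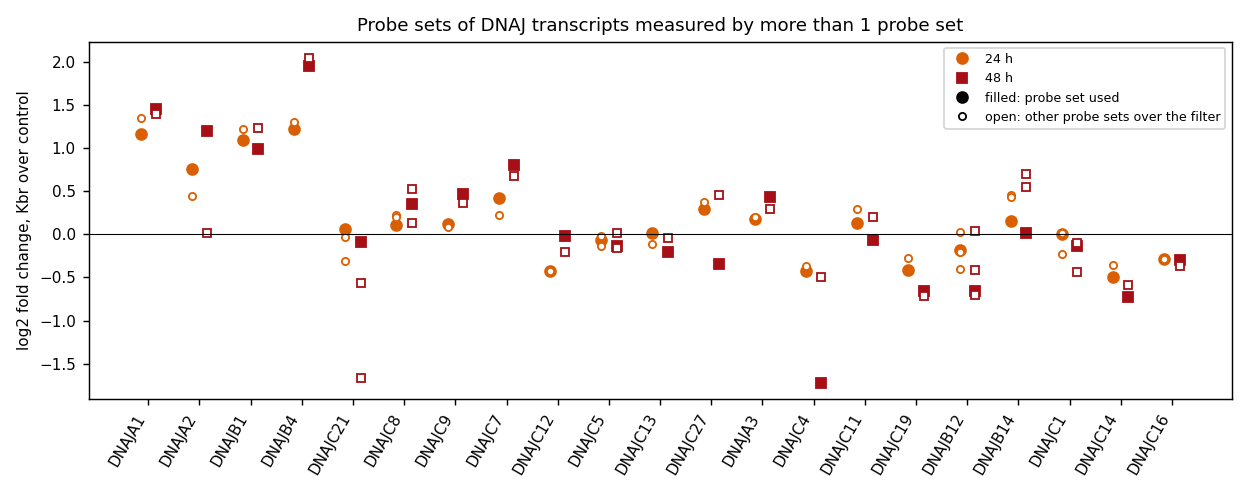
Log2 fold change, Kbr over control (vertical axis), of each probe set above the filter for the 21 DNAJ genes with more than 1; orange circles are 24 h and red squares 48 h. Large filled symbols are the probe sets used and small open symbols the others; the DNAJA2 probe sets read 1.20 and 0.02 at 48 h, and those of DNAJB4 read 1.96 and 2.05.

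Whether the Kbr effect differed between 48 h and 24 h was tested as the difference of the effects, which uses all 4 groups and so shares its arrays with the comparisons above. Of 29 members 0 had a higher and 1 a lower effect at 48 h at an adjusted p under 0.05, against 2.09% and 3.49% of all tested genes (5.58% in either direction). With an unadjusted p under 0.05 limma gave 5 higher and 2 lower. The share of all tested genes at that unadjusted threshold was not counted, so the 5 and 2 have no background here. The 1 called was DNAJC4, with a difference of -1.29 (SE 0.24, adjusted p = 0.0194). That call was lost on leaving out replicate 1 of Kbr 24 h (-1.25) or replicate 3 of control 24 h (-1.20), with an adjusted p of up to 0.055. DNAJB4 at 0.74 (SE 0.19, adjusted p = 0.0503) and DNAJC2 at 0.58 (SE 0.17, adjusted p = 0.0639) missed the threshold. With the replicate block 5 were higher (DNAJA2, DNAJB4, DNAJC2, DNAJC7 and DNAJC9) and 2 lower (DNAJC4 and DNAJB12), against 8.83% and 11.4% of all genes. Without Kbr 48 h replicate 3, 4 were higher (DNAJB4, DNAJC2, DNAJC24 and DNAJC30) and 1 lower, against 7.73% and 6.54%.

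Within Kbr cultures, 4 members were higher and 2 lower at 48 h than at 24 h, against 7.12% and 10.0% of all tested genes. In 6 members all Kbr 48 h arrays lay above all Kbr 24 h arrays and in 3 below (14.7% and 19.8% of all genes). DNAJB4 was higher by 0.72 (SE 0.14, adjusted p = 0.0073) and DNAJC2 by 0.56 (SE 0.12, adjusted p = 0.0105), and both calls held in each fit that left out 1 array. DNAJC24 was higher by 0.50 (adjusted p = 0.0179) and DNAJC7 by 0.34 (adjusted p = 0.0228), with calls lost in 4 and 5 of the 12 such fits. DNAJC4 fell by 0.57 (adjusted p = 0.0453) and DNAJC11 by 0.42 (adjusted p = 0.035), with calls lost in 9 and 6 of those fits. With the replicate block 7 were higher (adding DNAJA2, DNAJA3 and DNAJC12) and 4 lower (adding DNAJC19 and DNAJC27), against 14.2% and 19.6%. Without Kbr 48 h replicate 3 the counts were 7 (adding DNAJA3, DNAJC12 and DNAJC18) and 2, against 13.7% and 13.3%. The 2 lower in that fit were DNAJB1 and DNAJC19, while the DNAJC4 and DNAJC11 calls were lost.

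Control cultures also differed between the times. At 48 h against 24 h 1 member was higher and 1 lower, against 1.73% and 2.30% of all tested genes (4.03% in either direction), and with the replicate block 2 and 2 (adding DNAJC12 higher and DNAJA1 lower), against 8.62% and 12.2%. DNAJC4 was higher by 0.72 in control 48 h cultures (SE 0.17, adjusted p = 0.0458) and DNAJC9 was lower by a log2 difference of -0.45 (SE 0.10, adjusted p = 0.0324). In both genes the control arrays of the 2 times did not overlap, and the calls were lost in 9 and 7 of the 12 fits that left out 1 array. So at 48 h the DNAJC4 difference combines a mean of 4.01 ± 0.08 with Kbr, against 4.58 ± 0.33 with Kbr at 24 h, and 5.73 ± 0.24 in controls, against 5.01 ± 0.18 in controls at 24 h (SD, n = 3 each).

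Most of the tested HSP70 and HSP110 chaperones that DNAJ proteins work with moved with the cytosolic members. Of 12 listed genes 7 were tested, and 6 of these were higher and 0 lower at each time, with a median log2 fold change of 0.75 at 24 h and 1.10 at 48 h. Among all tested genes 12.4% were higher and 20.0% lower at 24 h, and 26.9% and 32.8% at 48 h. HSPH1, the HSP110 that exchanges nucleotide on HSP70, averaged 12.79 ± 0.07 in Kbr 24 h and 11.16 ± 0.07 in control 24 h arrays, and 13.18 ± 0.08 in Kbr 48 h and 10.92 ± 0.14 in control 48 h arrays (SD, n = 3 each). It rose by 1.62 and 2.26 (SE 0.10 each). HSPA14, the ribosome-bound partner of DNAJC2, averaged 10.69 ± 0.10 in Kbr 24 h and 9.61 ± 0.03 in control 24 h arrays, and 11.21 ± 0.13 in Kbr 48 h and 9.20 ± 0.21 in control 48 h arrays (SD, n = 3 each). HSPA14 rose by 1.09 (adjusted p = 0.000189) and 2.01 (adjusted p = 7.58e-07), so both members of the ribosome-bound pair were raised at both times. HSPA4, another HSP110 relative, rose by 0.75 and 1.56. The Kbr effect was larger at 48 h than at 24 h by 0.92 in HSPA14 (adjusted p = 0.0171), by 0.80 in HSPA4 (adjusted p = 0.0164) and by 0.63 in HSPH1 (adjusted p = 0.029), and the HSPH1 call was lost in 9 of the 12 fits that left out 1 array. HSPA1A, HSPA1B and HSPA8, the main stress-induced and constitutive HSP70s, had no probe set of their own and were not analysed here. HSPA6 lay between log2 2.85 and 3.11 and HSPA1L between 2.42 and 2.54 in all 12 arrays, and neither was tested. By limma HSPA2 was called at neither time (-0.28, adjusted p = 0.373, and -0.35, adjusted p = 0.208). HSPA6, HSPA1L and HSPA2 were added after their values were seen.

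Of 12 exchange factors and adaptors of HSP70, 5 were higher and 0 lower at 24 h, and 8 were higher and 1 lower at 48 h. All tested genes gave 12.4% higher and 20.0% lower at 24 h, and 26.9% and 32.8% at 48 h. With the replicate block 9 were higher and 1 lower at 24 h, where all genes gave 18.6% and 29.4%. The rise of CHORDC1, which works with HSP90, was 1.93 at 24 h and 2.79 at 48 h (SE 0.18 each). BAG3, which links HSP70 to autophagy, rose by 1.58 and 2.10 (SE 0.20 each), and GRPEL1, the nucleotide exchange factor of mitochondrial HSP70, by 0.95 and 1.76 (SE 0.16 each). STIP1, which joins HSP70 to HSP90, rose by 0.90 and 1.34, and STUB1, the ubiquitin ligase that sends HSP70 clients to the proteasome, was the 1 lower at 48 h, at -0.62 (SE 0.15, adjusted p = 0.00477). STIP1 and STUB1 were chosen after their values were seen. Of the heat shock factors HSF1 and HSF4 and the heat shock factor binding protein HSBP1, limma called 0 at either time (HSF2 was not analysed here), and 0 had an unadjusted p under 0.05. HSF1 gave -0.20 at 24 h (SE 0.16) and -0.08 at 48 h (SE 0.16), HSF4 gave 0.08 and -0.20, and HSBP1 gave -0.03 and 0.15.

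In the mitochondrial import motor DNAJC19 fell while most of the listed partner genes rose; the difference between them was not itself tested. Of the 6 tested genes listed beside DNAJC19, 4 were higher and 0 lower at 24 h, and 5 higher and 1 lower at 48 h. Among all tested genes 12.4% were higher and 20.0% lower at 24 h, and 26.9% and 32.8% at 48 h. With the replicate block 5 were higher and 0 lower at 24 h, where all genes gave 18.6% and 29.4%. TIMM23, also listed, did not pass the filter. HSPA9, the motor HSP70, rose by 0.64 (SE 0.10) and 0.82 (SE 0.10), TIMM17A, a channel subunit, by 0.52 and 1.10, and GRPEL1 as given above. TIMM44, which anchors HSPA9 to the channel, rose by 0.68 and 0.64, and PAM16, the partner that restrains DNAJC19, was at 0.38 (adjusted p = 0.0868, with the replicate block 0.0053) and rose by 0.58 at 48 h (adjusted p = 0.0087). TIMM17B, the alternative channel subunit, was lower at 48 h by -0.63 on the log2 scale (adjusted p = 0.0252), with overlapping arrays and a call lost in 4 of the 12 fits that left out 1 array. TIMM44, PAM16 and TIMM17B were chosen after their values were seen.

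**Figure D5:**
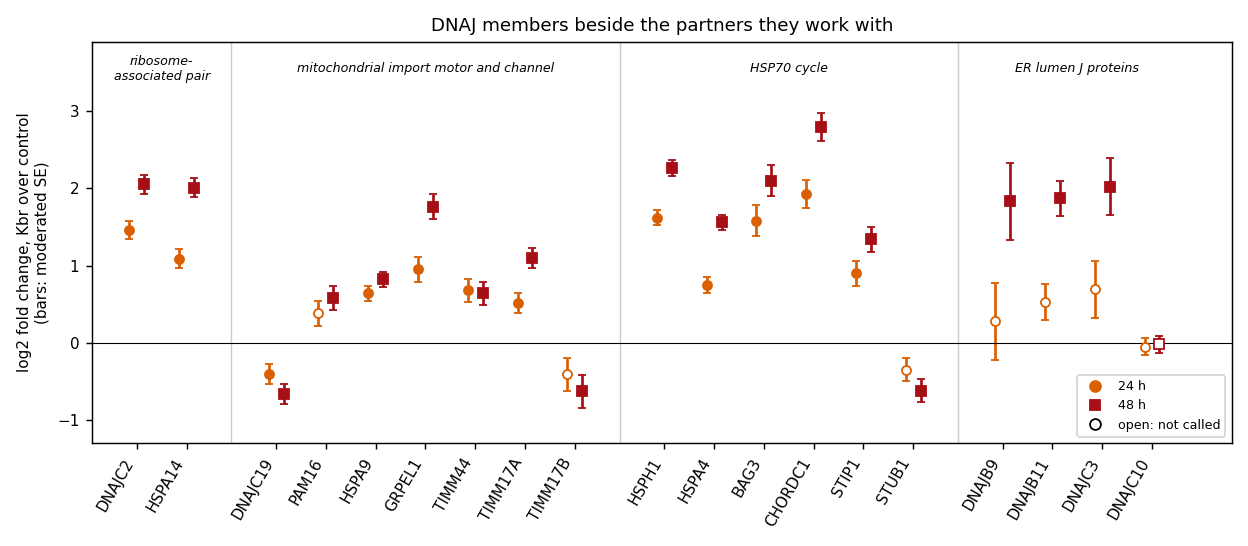
Log2 fold change, Kbr over control (vertical axis, bars are moderated SE), of DNAJC2 and DNAJC19 beside genes they work with, and of genes of the HSP70 cycle and the ER lumen. Orange circles are 24 h and red squares 48 h, open where the adjusted p was 0.05 or more; DNAJC2 and HSPA14 read 2.05 and 2.01 at 48 h, and DNAJC19 reads -0.66 beside 0.82 for HSPA9.

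Of 5 diphthamide synthesis genes, which act with DNAJC24, 1 was higher and 1 lower at 24 h, and 3 were higher and 1 lower at 48 h. All tested genes gave 12.4% higher and 20.0% lower at 24 h, and 26.9% and 32.8% at 48 h. With the replicate block 3 were higher and 1 lower at 24 h, where all genes gave 18.6% and 29.4%. DPH7 rose by 0.98 and 1.30, DPH6 fell by 1.20 at 24 h and was at -0.31 at 48 h (adjusted p = 0.21), and DPH5 was at -0.30 at 24 h (adjusted p = 0.112) and fell by 1.17 at 48 h. Of 5 genes of the clathrin coat, which DNAJC6 dismantles, 1 was higher and 1 lower at 24 h, and 1 higher and 2 lower at 48 h, counts near the shares of all genes. With the replicate block 1 was higher and 2 lower at 24 h, where all genes gave 18.6% and 29.4%. PICALM, a clathrin assembly protein, fell by 0.55 and 0.68, AP2B1, an adaptor subunit, was at -0.19 (adjusted p = 0.259, with the replicate block 0.0358) and fell by 0.53 at 48 h, and CLTA, a clathrin light chain, rose by 0.26 and 0.25. Both CLTA calls depended on single arrays, being lost in 5 and 2 of the 12 fits that left out 1 array. Of the aromatic amino acid hydroxylases listed as DNAJC12 clients, TH, TPH1 and TPH2 did not pass the filter, and phenylalanine hydroxylase was not analysed here.

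J proteins outside the set were read beside it. Of 5 J proteins of the ER lumen or translocon 0 were called at 24 h by limma, and 3 were higher at 48 h. Among all tested genes 12.4% were called higher at 24 h and 26.9% at 48 h. In 3 of the 5 (DNAJB9, DNAJB11 and DNAJC3) all Kbr 24 h arrays lay above all control 24 h arrays, against 22.4% of all genes. At an unadjusted p under 0.05 limma gave 1 of the 5 higher at 24 h, a threshold at which all genes were not counted. DNAJC10 gave -0.05 and -0.02 and SEC63 gave -0.02 and 0.17, called at neither time. These last genes were added after their values were seen. DNAJC3, an inhibitor of the stress kinases PKR and PERK, was at 0.69 (adjusted p = 0.18) and rose by 2.02 (SE 0.37), DNAJB11, a BiP co-chaperone, was at 0.53 (adjusted p = 0.0983) and rose by 1.87 (SE 0.23), and DNAJB9, another BiP co-chaperone, was at 0.28 (adjusted p = 0.701) and rose by 1.83 (SE 0.50). Their Kbr 48 h arrays spread widely, with an SD of 1.35 in DNAJB9, 1.02 in DNAJC3 and 0.58 in DNAJB11, against 0.24 in DNAJB4 and 0.20 in DNAJC2. The SE of a gene was estimated over all 4 groups, so this 48 h spread also entered the 24 h tests. In fits that left out 1 array, the lowest limma adjusted p at 24 h was 0.00681 for DNAJB11, 0.0136 for DNAJC3 and 0.187 for DNAJB9. DNAJB11 and DNAJC3 were not called at 24 h in 11 of the 12 such fits. Of 3 further J proteins tested, HSCB, which hands over iron-sulphur clusters, rose by 0.74 at 48 h (adjusted p = 0.00145), DNAJC22 fell by 0.96 (adjusted p = 0.00625), and GAK, the widely expressed relative of auxilin, was at 0.22 (adjusted p = 0.249, with the replicate block 0.0446).

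The replicate numbers pair the arrays across groups. In 15 of the 29 tested members (51.7%) the same number was the highest or the lowest in all 4 groups, against 41.6% of all tested genes. DNAJC1 was highest in replicate 2 and lowest in replicate 3 of every group, with values of 9.73 in Kbr 24 h replicate 2 and 9.42 in replicate 3, and 9.90 in control 24 h replicate 2 and 9.38 in replicate 3. In DNAJA1 replicate 3 was the highest and replicate 1 the lowest of each group, inside a Kbr difference that no array crossed.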

How the data were processed

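Biotin-labelled cRNA from total RNA of 12 HK-2 cultures was read on Affymetrix arrays, per the labels' protocols. The authors deposited log2 values; the submitters' processing notes name GCRMA, which removes background, normalizes arrays together and gives 1 value a probe set. The notes name no version or build. The annotation gave 1 gene to 41091 of 54675 probe sets, several to 1801 and none to 11721, and 62 were Affymetrix controls.

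Of a gene's probe sets that carry no other gene, the one with the highest mean was used; it was tested if it exceeded log2 4 in at least 3 arrays. The two-sided test was that of limma 3.58.1 (R 4.3.3), with 1 linear model over all 12 arrays and moderated variances (residual degrees of freedom 8, prior 2.87), with Benjamini-Hochberg adjustment over all 10574 tested genes and calls at an adjusted p under 0.05. SE is the moderated standard error, SD the spread over 3 arrays, and intervals are unadjusted. The fit was tested on simulated data with independent noise in each array. That simulation held no replicate pairing, so it does not test the fit under the pairing described below. Probe sets given as second or further readings come from a fit of all probe sets. Tables and plots used Python 3.11.15, pandas 2.3.3 and matplotlib 3.10.9.

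Replicate numbers pair the arrays: after group means were removed, the 18 same-number pairs correlated between 0.232 and 0.633 and the 36 other pairs between -0.378 and -0.0042. The number was therefore also fitted as a block, and its value stands beside a member's result whose call it changes and beside the list counts it moves. The labels do not say what a number stands for. The number of arrays limits the precision. The members and lists were chosen with earlier results of these data known. All members are named, with every array's value where called at 24 h or 48 h, and 3 genes per list with the largest change; others are said to be chosen later.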

Additional observations from a re-analysis of the deposited data

Results flagged for a closer look

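The Kbr effect on DNAJC4 differed between the times by a test of the difference itself, at -1.29 on the log2 scale (SE 0.24, 95% interval -1.83 to -0.75, limma adjusted p = 0.0194). DNAJC4 was at -0.43 with Kbr at 24 h and at -1.72 at 48 h, and each replicate pair had the same sign, with Kbr minus control of -0.53, -0.15 and -0.62 at 24 h and -2.02, -1.74 and -1.41 at 48 h. Its values lay close to the filter in Kbr 48 h arrays, at 3.91 to 4.07, and its second probe set read -0.37 and -0.50. The part of the probe set in the difference was not tested.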

How the results depend on the processing

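All 17 calls at 48 h held in each fit that left out 1 array and with no filter, median centring, quantile normalization, an offset of 32, a trended prior, only the groups compared and the replicate block. With the mean of all probe sets 15 of the 17 were shared (DNAJC30 lost, DNAJC4 not tested), with unsuffixed ones 13 (DNAJC8 lost, DNAJC2, DNAJC4 and DNAJC9 not tested), and with the filter at log2 6 16 (DNAJC4 not tested). Leaving out 1 array, the counts ranged from 7 to 8 higher and 0 to 2 lower at 24 h, from 13 to 14 higher and 4 to 4 lower at 48 h, from 0 to 4 and 0 to 1 for the difference of the effects, from 2 to 7 and 0 to 2 for Kbr 48 h against Kbr 24 h, and from 0 to 1 and 0 to 1 for control 48 h against control 24 h. The array behind the 4 and the 7 is Kbr 48 h replicate 3. The replicate block gave 3 lower at 24 h, 5 higher and 2 lower for the difference, 7 and 4 between Kbr times and 2 and 2 between control times; it changed no call at 48 h. The 1 lower at 24 h became 0 with no filter and with the mean of probe sets, and 2 with a filter at log2 6 and with the offset. For the difference of the effects, 1 was higher with no filter, with the filter at 6 and with the mean of probe sets, 2 with the offset and with the trended prior; 0 were lower with the filter at 6, the mean of probe sets and unsuffixed probe sets, where DNAJC4 was no longer tested. Between Kbr times, 2 were higher with only the groups compared; 0 were lower with no filter, and 1 with the filter at 6, unsuffixed probe sets, centring, the offset, the trended prior and only the groups compared. Between control times, 0 were higher with no filter, the filter at 6, the mean of probe sets, unsuffixed probe sets, centring, the trended prior and only the groups compared; 0 were lower with the mean of probe sets, unsuffixed probe sets and only the groups compared. Between Kbr times and between control times, DNAJC4 was likewise not tested with the filter at 6, the mean of probe sets and unsuffixed probe sets. Between control times DNAJC9 was not tested with unsuffixed probe sets. The cause of the other shifts was not tested. DNAJC30 at 24 h changed sign to 0.01 with quantile normalization and to 0.03 without control 24 h replicate 3, called in neither, and lay between -0.13 and 0.03 over the fits that left out 1 array. Values near log2 4 and 3 arrays per group limit what can be resolved.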
